A study of Mus musculus with 6 samples.

Results

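The genes described here mark Sertoli cells, the somatic cells of the seminiferous tubule, or are secreted by them. They are 10 genes, taken by name: the transcription factors Sox9, Sox8 and Wt1, the ligands Amh and Kitl, the hormone receptor Fshr, and the secreted proteins Trf, Clu, Cst9 and Cst12. All 10 were among the 38715 genes of the deposited table, and 7 reached the mean of 1 RPKM in at least 1 group that was required for testing. RPKM is a read number scaled to gene length and to the reads of the library. The study measured messenger RNA of whole mouse testis in 3 libraries titled Middle and 3 titled Control. Middle is read here as the MES-exposed group, since the titles name no other; the series title places the exposure in early life. The sources used here do not give what MES stands for, its dose, or the strain, age and genotype of the mice.

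Sertoli cells hold the germ cells while they divide and mature. SOX9, SOX8 and WT1 set and keep Sertoli cell identity, from the fetal gonad onward. The cells answer to follicle-stimulating hormone through FSHR, and send AMH to the Müllerian duct and the growth factor KITL to spermatogonia that carry its receptor KIT. They release transferrin, clusterin and proteins of the cystatin family into the tubule. Amh is strongly expressed in immature Sertoli cells and falls as they mature.

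Of the Sertoli genes, Sox9 had higher values in every Middle library than in any Control library, and the cystatins Cst9 and Cst12 had lower means in Middle by 0.686-fold and 0.753-fold. Clu, by far the most abundant, and Trf differed by under the spread between libraries. None of the 7 tested genes passed the test across all genes, so none is called changed. The background was low as well: 8 of 15040 genes, or 0.0532%, passed at an adjusted p under 0.05 (limma-trend, Benjamini-Hochberg). An unadjusted p under 0.05 was reached by 20.7% of all tested genes and by 2 of the 7, Sox9 and Cst12 (limma).

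Reads over all genes came to 38820385 to 58389391 a library. Middle replicate 1 stood apart: on the first principal component of all tested genes, which carried 50.1% of the variance, it lay at 27.01, the other Middle libraries at 0.965 and 4.90, and the Control libraries between -15.0 and -6.48. The rank correlation across genes between transcript GC content and a library's deviation from the mean was 0.446, 0.0282 and -0.0706 in Middle replicates 1 to 3, and -0.294, -0.216 and -0.246 in Control replicates 1 to 3. Every Middle library lay above every Control library, so this trend and the exposure cannot be told apart. Of 20 ribosomal protein and mitochondrially encoded genes listed as signs of RNA quality, 17 were tested and 16 lay above 0. Their summed level was 10105.0 to 13545 RPKM in Middle and 7460.3 to 9081 RPKM in Control, and 1 passed, mt-Nd3, which was lower in Middle. Their part in the results was not tested. Values without Middle replicate 1 and with the GC trend removed stand beside each tested Sertoli gene. Whether each library is a different animal is not in the labels, and p-values cover the spread between libraries alone.

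The promoters of the secreted cystatin genes are shown because Cst9 and Cst12, neighbours in a cluster on chromosome 2, had the most negative fold changes of the tested Sertoli genes. Cst13 lies between them and is shown because its groups did not overlap. Each is the 250 bases before the annotated start, 5′ to 3′ on the gene's strand, from RefSeq on GRCm38.p6; all other coordinates here are GRCm39. The windows are chr2:148834897-148835146 for Cst9, chr2:148789115-148789364 for Cst12 and chr2:148819849-148820098 for Cst13, all on the plus strand. Capitals mark GATA factor motifs (on either strand the letters AGATAA, the letters TGATAA, the letters AGATAG and the letters TGATAG) and SOX-type motifs (on either strand the letters AACAAT and the letters AACAAAG). The GATA letters were searched because the series title names GATA2.
Cst9: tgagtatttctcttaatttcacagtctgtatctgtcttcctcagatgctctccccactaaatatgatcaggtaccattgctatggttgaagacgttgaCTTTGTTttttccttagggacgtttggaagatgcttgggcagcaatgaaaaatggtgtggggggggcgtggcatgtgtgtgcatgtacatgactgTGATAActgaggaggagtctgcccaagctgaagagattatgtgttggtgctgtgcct
Cst12: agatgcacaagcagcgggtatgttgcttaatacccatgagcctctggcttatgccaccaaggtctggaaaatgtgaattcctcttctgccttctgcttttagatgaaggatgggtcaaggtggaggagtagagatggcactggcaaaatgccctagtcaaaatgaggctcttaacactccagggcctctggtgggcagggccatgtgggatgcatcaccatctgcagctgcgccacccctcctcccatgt
Cst13: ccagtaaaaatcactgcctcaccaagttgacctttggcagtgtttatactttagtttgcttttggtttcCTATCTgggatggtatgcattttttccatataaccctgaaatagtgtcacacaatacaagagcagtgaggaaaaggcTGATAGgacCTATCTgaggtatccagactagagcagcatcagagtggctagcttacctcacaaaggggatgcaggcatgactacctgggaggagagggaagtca

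Cst9 held 1 GATA motif, TGATAA, with its first base 57 bases before the start, and 1 SOX-type motif, read on the other strand, 152 bases before it. Cst12 held no match to either, and Cst13 held 3 GATA matches and no SOX-type match. Of the 9 cystatin genes of the cluster 8 have a promoter in the table, and 4 of these held a GATA match, Cst9, Cst13, Cstdc1 and Cstdc2, while Cst12, Cstl1, Cst8 and Cst3 held none. Of all 32851 promoters in the table, 26.5% held a GATA match and 13.8% a SOX-type match in the same window. The table holds promoters for 5 of the 10 Sertoli genes. Sox8, Kitl and Fshr, the other 3, held neither. The E-box CACGTG, present in 6.02% of promoters, lay 152 bases before the start of Sox8 and 61 bases before that of Fshr. In rats, an E-box of the Fshr promoter is known to bind USF factors. A TATAAA lay 25 bases before the start of Kitl; 12.4% of promoters held one. The androgen receptor half-site AGAACA (16.1%) and the NR5A1-type half-site AAGGTCA (4.08%) were in none of the 5. A match is letters only and says nothing of binding.

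By level per length, the Sertoli genes spanned a wide range. Clu averaged 138.9 RPKM over the 6 libraries. Cst12 and Cst9 averaged 16.6 and 15.2 RPKM, and their ranges over libraries overlapped. Sox8, Sox9, Trf and Wt1 averaged 3.21, 2.52, 2.46 and 2.28 RPKM, with overlapping ranges from each to the next. Kitl at 0.763 RPKM, Fshr at 0.385 and Amh at 0.268 were below the level required for testing; Kitl lay above the other 2 in every library, while Fshr and Amh overlapped. A gene with no reads could still hold up to 3 fragments (6 reads), which for Amh, the lowest, is 0.0615 to 0.0925 RPKM, and every value lay above its limit. Such limits cover counting error only.

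**Figure D1:**
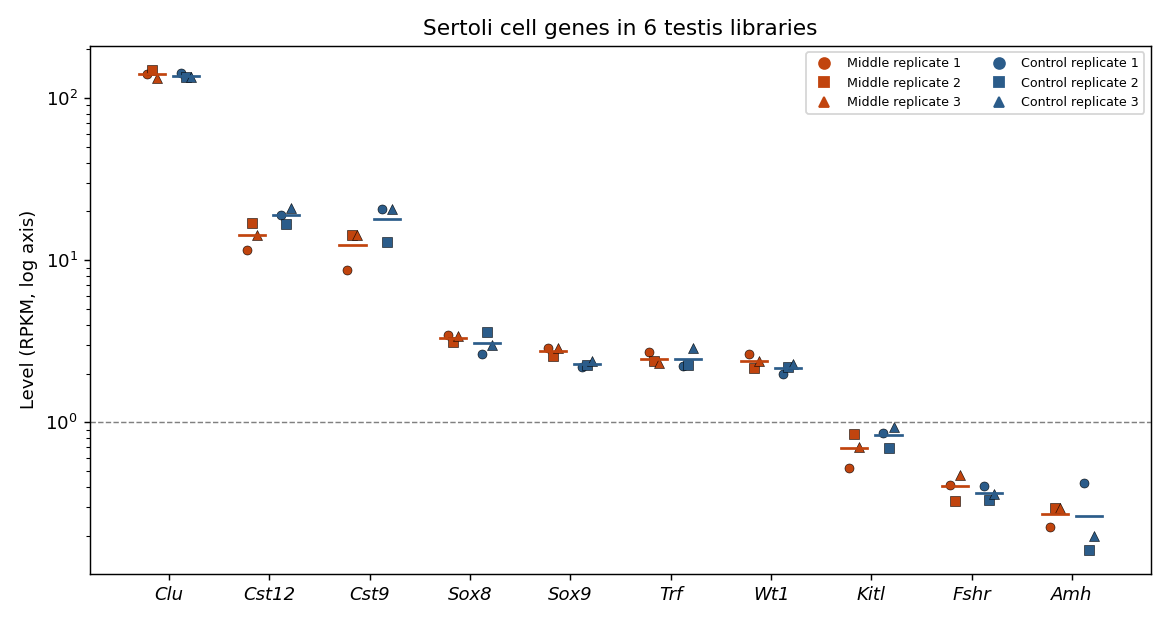
Level of each of the 10 Sertoli genes in RPKM (log axis) in the 3 Middle (left of each pair) and 3 Control libraries; symbols mark replicates, short bars the group means, and the dashed line 1 RPKM. Clu lies near 139 RPKM in all libraries, the cystatins between 8.67 and 21.1, and Kitl, Fshr and Amh below 1.

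Sox9 (chromosome 11, 112673050 to 112678586, GRCm39), the SOX factor that drives Sertoli cell differentiation, was at 2.87, 2.55 and 2.87 RPKM in Middle replicates 1 to 3, against 2.19, 2.26 and 2.39 RPKM in Control replicates 1 to 3. All 3 Middle libraries lay above all 3 Control libraries. The means were 2.76 ± 0.184 RPKM in Middle and 2.28 ± 0.105 in Control (SD, n = 3 each), a ratio of 1.21. The log2 fold change, on the log2(RPKM + 1) scale that understates changes of low genes, was 0.20 (SE 0.07, 95% interval 0.03 to 0.37) and did not pass (adjusted p = 0.201, limma). It was 0.18 without Middle replicate 1 and 0.20 with the GC trend removed. Among all tested genes, Middle lay above every Control library for 17.9% and below every one for 11.4%. Of the 7 tested Sertoli genes, these held for 1, Sox9, and for 0. The same shares of all genes are the background wherever a tested gene's groups are said not to overlap.

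Sox8 (chromosome 17, 25784866 to 25789660), a close relative that shares tasks with Sox9 in the mouse testis, was at 3.47, 3.15 and 3.39 RPKM in Middle and 2.66, 3.59 and 3.02 RPKM in Control replicates 1 to 3. The highest and the lowest value were both in Control. The means were 3.34 ± 0.167 and 3.09 ± 0.471 RPKM in Middle and Control (SD, n = 3 each), with a log2 fold change of 0.09 (SE 0.10, 95% interval -0.13 to 0.31, adjusted p = 0.588, limma). It was 0.07 without Middle replicate 1, 0.01 without Control replicate 1, 0.18 without Control replicate 2 and 0.04 with the GC trend removed. Its span shares 329 bases with Cerox1, a gene of the opposite strand. How reads of overlapping genes were counted, and whether by strand, is not stated, so such reads may not be told apart. Overlap was taken from whole spans, introns included, and overlap of exons was not checked. Of the genes below, spans also overlap another gene for Nr5a1, Ctnnb1, Sox5, Stat3, Gnas, Lrp8, Fth1, Ftl1, Bax, Ctsb and Prm1, among others.

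Wt1 (chromosome 2, 104956874 to 105003961), a zinc finger factor needed to keep Sertoli cells in their fate, was at 2.65, 2.16 and 2.40 RPKM in Middle and 1.98, 2.21 and 2.30 RPKM in Control replicates 1 to 3. Middle replicates 1 and 3 lay above every Control library and Middle replicate 2 within their range. The log2 fold change was 0.10 (SE 0.08, 95% interval -0.09 to 0.30, adjusted p = 0.472, limma), and it was 0.05 without Middle replicate 1 and 0.05 with the GC trend removed. The table sums all exons of a gene, so the splice forms of Wt1 are not told apart. Summed over Sox9, Sox8 and Wt1, the levels were 8.99, 7.86 and 8.66 RPKM in Middle and 6.82, 8.06 and 7.71 RPKM in Control replicates 1 to 3.

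Other genes of testis determination were read from a list of 22, of which 9 were tested. None passed in either direction, 7 lay above 0 and 2 below, and the median log2 fold change was 0.15, against 0.03 over all tested genes. Gata4, a zinc finger partner of WT1 and SOX9 in Sertoli cells, was at 2.56, 2.47 and 2.34 RPKM in Middle and 1.94, 1.86 and 1.91 RPKM in Control. Nr5a1, the nuclear receptor that acts with SOX9 on Amh, was at 4.66, 4.34 and 4.05 RPKM in Middle and 3.18, 3.34 and 3.97 RPKM in Control. For both genes the groups did not overlap, and neither passed (adjusted p = 0.178 and 0.196, limma). Middle lay above every Control library for 5 of the 9 tested and below every one for 0. Over all tested genes these shares were 17.9% and 11.4%. Dmrt1, which guards male fate in the postnatal Sertoli cell, was at 6.23 ± 0.615 and 5.55 ± 0.359 RPKM in Middle and Control (SD, n = 3 each), with overlapping groups. Whole testis does not tell which cells held the transcripts of Gata4, Nr5a1 and Dmrt1. Nr0b1 (log2 fold change 0.34) and Ctnnb1 (0.16) were the remaining genes of smallest p, and both failed (adjusted p = 0.184 and 0.222, limma). Foxl2, the factor of ovarian granulosa cells, was at 0 in 4 of the 6 libraries and at most at 0.0132 RPKM, and Sry, the gene that starts male development, at 0.0298 to 0.173 RPKM.

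Of 18 other SOX family genes, 5 were tested and none passed; 4 lay above 0 and 1 below, with a median of 0.12. Sox30, a germ cell SOX factor, was the most abundant at 73.6 ± 1.90 RPKM in Middle and 73.8 ± 1.29 in Control (SD, n = 3 each). Sox5 was at 32.0 ± 3.84 and 27.2 ± 1.21 RPKM in Middle and Control (SD, n = 3 each; log2 fold change 0.22, adjusted p = 0.236, limma).

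Amh (chromosome 10, 80641077 to 80643482), the hormone that makes the Müllerian duct regress, was at 0.228, 0.295 and 0.297 RPKM in Middle and 0.426, 0.164 and 0.201 RPKM in Control replicates 1 to 3. These values rest on 13 to 38 reads a library. The group means, 0.273 ± 0.0396 and 0.263 ± 0.142 RPKM (SD, n = 3 each), differed by less than the spread in Control, whose libraries held both the highest and the lowest value. Its receptor gene Amhr2 was far more abundant per length, at 40.6, 35.1 and 35.04 RPKM in Middle and 32.1, 33.05 and 32.6 RPKM in Control, with no overlap between groups. It did not pass either (log2 fold change 0.17 with an SE of 0.07; adjusted p = 0.236, limma). Of 11 genes that carry the AMH signal 4 were tested, 0 passed and all 4 lay above 0 (median 0.06), the others being Smad4, Smad5 and Smad1 at 0.07, 0.05 and 0.02. Amhr2 is also a gene of Leydig cells, and whole testis does not tell which cells held the transcript.

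Kitl (chromosome 10, 99851492 to 99936278), the KIT ligand that spermatogonia need, was at 0.522, 0.849 and 0.707 RPKM in Middle and 0.861, 0.695 and 0.941 RPKM in Control replicates 1 to 3, from 146 to 272 reads. Middle replicate 1 lay below every other library, and Middle replicates 2 and 3 within the Control range. The ratio of means was 0.832, and under a filter on read number that let Kitl in, its log2 fold change was -0.12 (adjusted p = 0.433, limma). The membrane-bound and soluble forms, which differ by an exon, are not told apart. The receptor gene Kit was at 0.678, 0.669 and 0.595 RPKM in Middle and 0.665, 0.480 and 0.555 RPKM in Control, also below the level for testing. Of 19 genes of KIT signalling 13 were tested, 8 above 0 and 5 below, and none passed (median 0.06). Those of smallest p were the transcription factor gene Stat3 (0.22), the kinase gene Akt1 (0.17), the adaptor gene Grb2 (0.20) and the phosphatase gene Ptpn11 (0.15), with adjusted p-values of 0.185 to 0.280 (limma).

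Fshr (chromosome 17, 89292380 to 89508103), the receptor for follicle-stimulating hormone, was at 0.412, 0.327 and 0.473 RPKM in Middle and 0.404, 0.334 and 0.360 RPKM in Control replicates 1 to 3, from 33 to 63 reads. The Control libraries lay inside the range of the Middle libraries, and the group means were 0.404 ± 0.0733 and 0.366 ± 0.0356 RPKM in Middle and Control (SD, n = 3 each). Downstream of the receptor, 9 of 20 listed genes were tested and none passed, with 7 above 0 and 2 below (median 0.11). Grk2, a kinase that desensitises such receptors, was at 2.88 ± 0.0530 RPKM in Middle and 2.28 ± 0.0555 in Control (SD, n = 3 each; log2 fold change 0.24, adjusted p = 0.178, limma). The G protein gene Gnas (0.24) and the regulatory subunit gene Prkar1a (0.25) lay above 0 and the kinase anchor gene Akap1 below (-0.15), with adjusted p-values of 0.201 to 0.239 (limma). These steps are shared by many receptors and cell types.

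Trf (chromosome 9, 103081200 to 103107643) encodes transferrin, which carries iron to germ cells across the barrier that Sertoli cells form. It was at 2.72, 2.40 and 2.31 RPKM in Middle and 2.23, 2.24 and 2.86 RPKM in Control replicates 1 to 3. The group ranges overlapped and the means were 2.47 ± 0.214 and 2.44 ± 0.357 RPKM in Middle and Control (SD, n = 3 each). The log2 fold change was 0.02 (SE 0.10, 95% interval -0.21 to 0.24, adjusted p = 0.930, limma). Its sign turned to -0.033 without Middle replicate 1 and to -0.023 with the GC trend removed. The transferrin receptor gene Tfrc was at 0.683, 0.905 and 0.859 RPKM in Middle and 0.811, 0.869 and 0.725 RPKM in Control.

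Of 16 iron-handling genes 9 were tested, 7 above 0 and 2 below, none passed, and the median was 0.11. The ferritin heavy chain gene Fth1 was at 61.1, 47.4 and 50.6 RPKM in Middle and 38.6, 40.8 and 44.8 RPKM in Control, without overlap (log2 fold change 0.34 with an SE of 0.10; adjusted p = 0.178, limma). The ferritin light chain gene Ftl1 was at 12.2 ± 2.38 and 9.77 ± 0.370 RPKM in Middle and Control (SD, n = 3 each). The iron transporter gene Slc11a2 (0.18) and the iron chaperone gene Pcbp1 (0.11) did not pass either (adjusted p = 0.265 and 0.338, limma).

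Clu (chromosome 14, 66205932 to 66218996) encodes clusterin, a secreted chaperone that binds lipids and unfolded proteins and is a main product of Sertoli cells. It was at 140.4, 149.04 and 132.8 RPKM in Middle and 142.3, 134.8 and 134.4 RPKM in Control replicates 1 to 3, from 17927 to 27047 reads. The lowest and the highest value were both in Middle. The means were 140.7 ± 8.13 and 137.2 ± 4.48 RPKM in Middle and Control (SD, n = 3 each), a ratio of 1.03. The log2 fold change of 0.04 had an SE of 0.06 and a 95% interval of -0.11 to 0.18 (adjusted p = 0.751, limma). It was 0.04 without Middle replicate 1 and turned to -0.030 with the GC trend removed.

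Of 12 receptors and partners of clusterin 6 were tested, 4 above 0 and 2 below, and none passed (median 0.12). Lrp8, a receptor that takes up clusterin, was at 2.77 ± 0.245 and 2.85 ± 0.257 RPKM in Middle and Control, and the related Lrp2 at 0.0687 ± 0.0151 and 0.0541 ± 0.0188 (SD, n = 3 each). Bax, a death regulator that clusterin binds, was at 4.22, 4.13 and 4.47 RPKM in Middle and 3.12, 3.85 and 3.63 RPKM in Control, without overlap (log2 fold change 0.22, adjusted p = 0.202, limma). The others of smallest p were Xrcc5 (0.19), the lipid carrier gene Apoe (0.17) and Lrp1 (0.06), with adjusted p-values of 0.274 to 0.627 (limma).

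Cst9 (chromosome 2, 148677067 to 148680658) encodes testatin, a cystatin relative first known from the fetal testis. It was at 8.67, 14.2 and 14.2 RPKM in Middle, against 20.6, 12.9 and 20.7 RPKM in Control replicates 1 to 3. Middle replicate 1 was the lowest library and Control replicates 1 and 3 the highest, while Control replicate 2 lay below Middle replicates 2 and 3, so the groups overlapped. The means were 12.4 ± 3.21 and 18.1 ± 4.45 RPKM in Middle and Control (SD, n = 3 each). The log2 fold change was -0.51 (SE 0.23, 95% interval -1.04 to 0.02) and did not pass (adjusted p = 0.249, limma). It was -0.29 without Middle replicate 1, -0.72 without Control replicate 2 and -0.47 with the GC trend removed.

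Cst12 (chromosome 2, 148631281 to 148635466), another cystatin of the cluster, was at 11.5, 16.9 and 14.3 RPKM in Middle, against 19.02, 16.6 and 21.1 RPKM in Control replicates 1 to 3. Middle replicates 1 and 3 lay below every Control library, and Middle replicate 2 lay just above Control replicate 2. The means were 14.2 ± 2.66 and 18.9 ± 2.23 RPKM in Middle and Control (SD, n = 3 each), with a log2 fold change of -0.39 (SE 0.14, 95% interval -0.71 to -0.07, adjusted p = 0.194, limma). It was -0.26 without Middle replicate 1 and -0.35 with the GC trend removed. The ratio of Cst9 to Cst12 was 0.751, 0.844 and 0.993 in Middle and 1.08, 0.777 and 0.982 in Control. Its means were 0.863 ± 0.122 and 0.946 ± 0.155 in Middle and Control (SD, n = 3 each). Whether the 2 genes vary together was not tested.

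A ratio to Sox9 in the same library was chosen after the values were seen. Sox9 was higher in every Middle library, and Cst12 and Cst9 had lower means there. Dividing by Sox9 therefore widens their difference by construction, and a separation adds no support. Cst12 over Sox9 was 4.02, 6.61 and 5.001 in Middle and 8.70, 7.37 and 8.81 in Control, without overlap. Cst9 over Sox9 was 3.02, 5.58 and 4.97 in Middle and 9.41, 5.72 and 8.65 in Control, also without overlap. Clu over Sox9 overlapped, at 48.9, 58.4 and 46.3 in Middle and 65.1, 59.7 and 56.2 in Control. Sox8 over Sox9, at 1.18 to 1.23 in Middle and 1.22 to 1.59 in Control, overlapped too. So did Wt1 over Sox9, at 0.837 to 0.923 and 0.905 to 0.979. The ratios describe these libraries and were not tested.

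**Figure D2:**
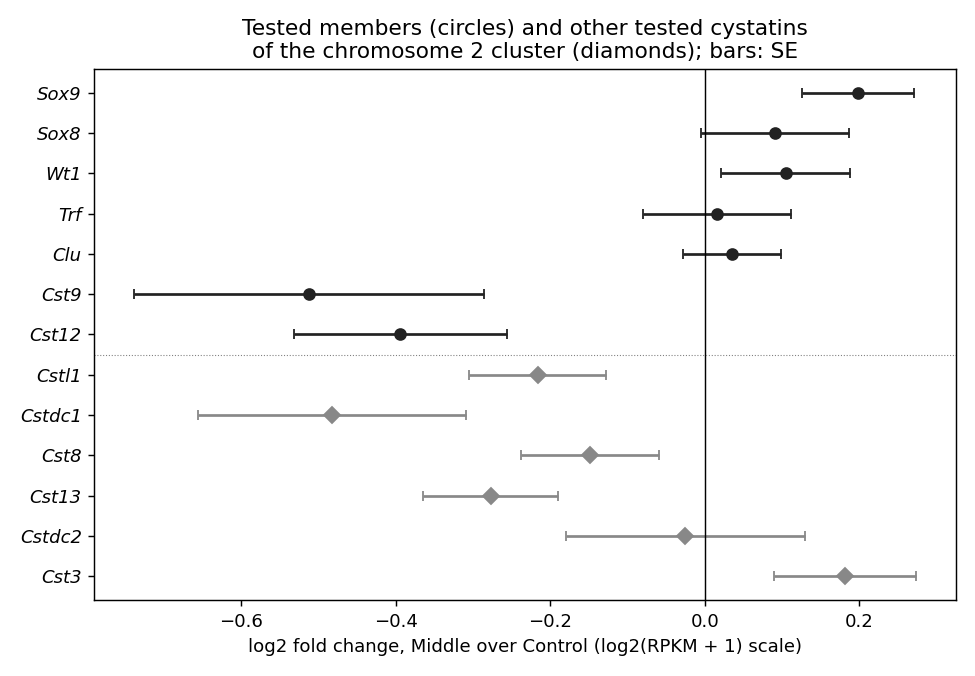
Log2 fold change of Middle over Control on the log2(RPKM + 1) scale for the 7 tested Sertoli genes (circles) and 6 other tested cystatins of the chromosome 2 cluster (diamonds), with SE bars. Sox9 lies at 0.20 and Cst9 and Cst12 at -0.51 and -0.39; none passed over all genes.

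The cluster holds 9 cystatin genes in 125335 bases of chromosome 2 (148592278 to 148717612) and no other gene of the table. In order they are Cstl1, Cst11, Cstdc1, Cst12, Cst8, Cst13, Cst9, Cstdc2 and Cst3. Cst11 held 2 to 10 reads a library and was not tested. Of the other 8, 7 lay below 0 in Middle and Cst3 above, and none passed; over all tested genes 55.9% lay above 0. The count of 7 includes Cstdc2 at -0.02, whose sign turned to 0.14 without Control replicate 2, to 0.08 without Middle replicate 2 and to 0.03 with sample weights. Cst12 and Cst9 themselves are among the 7, and the genes were described together because these members were lower.

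Cst13, between Cst12 and Cst9, was at 57.2, 51.4 and 62.8 RPKM in Middle and 71.8, 64.2 and 71.9 RPKM in Control. Its groups did not overlap, Middle being below every Control library as for 11.4% of all tested genes. The log2 fold change was -0.28 with an SE of 0.09 (adjusted p = 0.180, limma). Cstdc1, next to Cst12, was at 2.39, 4.13 and 2.77 RPKM in Middle and 5.41, 3.70 and 4.92 RPKM in Control (log2 fold change -0.48 with an SE of 0.17; adjusted p = 0.199, limma). In this gene too, as in Cst9 and Cst12, Control replicate 2 was the lowest Control library and Middle replicate 1 the lowest of all. Control replicate 2 was also the lowest Control library for Cstl1, Cst8 and Cst13.

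Cst8, a cystatin of spermatids and epididymis, was the most abundant at 277.9 ± 33.0 RPKM in Middle and 306.95 ± 13.6 in Control (SD, n = 3 each; log2 fold change -0.15). Its log2 fold change was -0.24 without Middle replicate 1, -0.08 without Middle replicate 3 and -0.12 with the GC trend removed. Cstl1 at the edge of the cluster was at 79.9 ± 2.01 and 93.4 ± 10.9 RPKM in Middle and Control (SD, n = 3 each; log2 fold change -0.22). Cst3, the widely expressed cystatin C gene at the other edge, was at 112.3, 96.4 and 87.9 RPKM in Middle and 83.5, 86.1 and 90.5 RPKM in Control (log2 fold change 0.18), with 0.09 without Middle replicate 1 and 0.11 with the GC trend removed. The adjusted p-values of Cst8, Cstl1, Cst3 and Cstdc2 were 0.2298 to 0.933 (limma). No stretch of 50 bases was shared by the GENCODE M21 transcripts of any pair among 15 genes, the 10 Sertoli genes with Cstl1, Cst11, Cst8, Cst13 and Cst3.

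**Figure D3:**
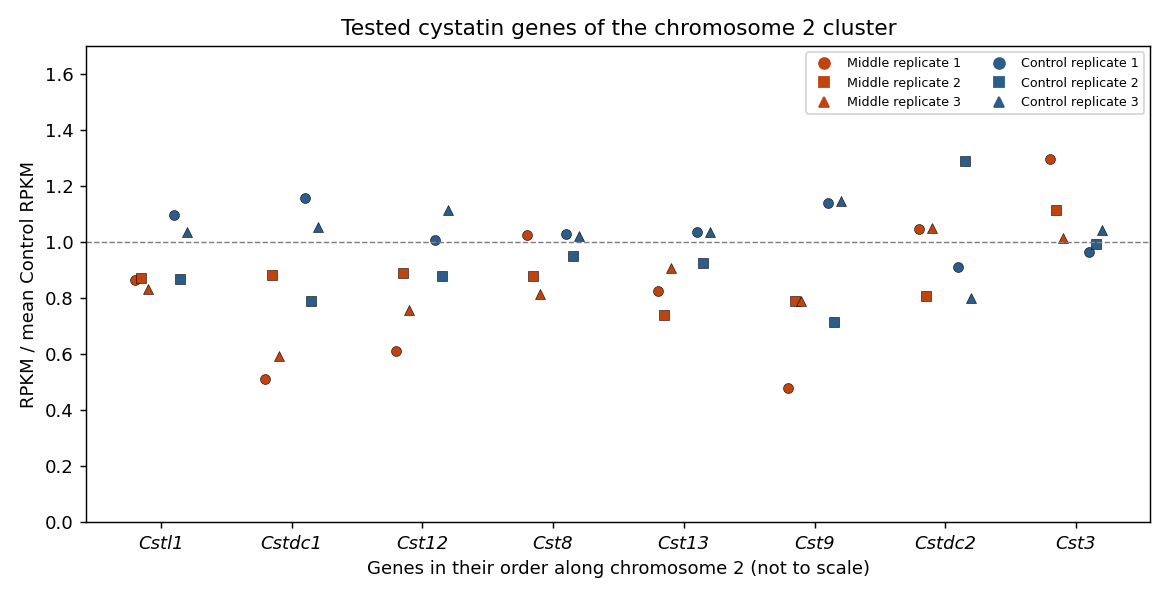
Each library's RPKM divided by the gene's mean over the Control libraries (linear axis from 0) for the 8 tested cystatins in their order along chromosome 2; Middle is left of Control, symbols mark replicates, and the dashed line is 1. Middle replicate 1 is lowest for Cstdc1, Cst12 and Cst9 and highest for Cst3.

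Of 14 cystatins listed outside Cst9 and Cst12, 7 were tested, 1 above 0 and 6 below (median -0.15), and none passed. With mitochondrial and the most abundant genes left out of the library total, 2 lay above 0 and 5 below, Cstb having turned. With a library left out, the split reached 3 above and 4 below, without Control replicate 2 and without Middle replicate 2, and the median ran from -0.22 without Middle replicate 1 to -0.08 without Middle replicate 3. Of 12 lysosomal protease genes, cathepsins and legumain, 8 were tested, 7 above 0 and 1 below (median 0.14), and none passed. Many cystatins block cysteine proteases such as cathepsin B, but whether the products of Cst9 and Cst12 do so was not tested. Ctsa, also in the list, encodes a serine carboxypeptidase and is not of that class. Ctsb was at 7.16 ± 0.801 and 6.13 ± 0.416 RPKM in Middle and Control (SD, n = 3 each), and the groups overlapped. Ctsb (0.19), Ctsa (0.21), Lgmn (0.15) and Ctsz (0.15) had adjusted p-values of 0.264 to 0.458 (limma).

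Over the 7 tested Sertoli genes, 5 lay above 0 and 2 below, with a median of 0.04 against 0.03 over all tested genes. The median was -0.0042 with sample weights and -0.023 with the GC trend removed, each with 3 above 0 and 4 below. A wider list of 40 other Sertoli genes had 34 tested, 29 above 0 and 5 below, a median of 0.17, and 0 that passed. Most of the tested testis determination genes, Gata4, Nr0b1, Nr5a1 and Dmrt1 among them, are in this list too. It also shares genes with the Leydig and spermatogonium lists, so these lists are not separate from each other. For 14 of the 34 Middle lay above every Control library, and for 0 below, against the 17.9% and 11.4% of all genes. Those of smallest p were Gata4, Gstm6, the dopamine receptor gene Drd4 and the filament gene Vim, at 0.25, 0.34, 0.31 and 0.31 (adjusted p = 0.178 each, limma). Rhox5, an androgen-driven Sertoli gene, was at 34.04, 25.4 and 32.3 RPKM in Middle and 22.5, 23.9 and 25.6 RPKM in Control, with overlapping groups. The junction gene Cldn11 was at 14.3, 10.9 and 14.4 RPKM in Middle and 10.6, 11.1 and 12.96 RPKM in Control, also with overlap. The median of the wider list was 0.13 without Middle replicate 1 and 0.14 with the GC trend removed.

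In whole tissue, fewer cells of a type and less RNA per cell cannot be told apart. The defining Sertoli genes were measured in every library, Amh only weakly. Among other cell types, summed RPKM over 12 elongating spermatid genes was 29930.2 to 32364 in Middle and 31716 to 34953 in Control, with 9 of 12 below 0. Over 12 round spermatid genes the sum was 503 to 533 in Middle and 529.7 to 572 in Control, with 9 of 12 below 0. Prm1, the protamine of late spermatids, was at 3786 ± 171 and 4259.5 ± 179 RPKM in Middle and Control (SD, n = 3 each). Over 12 Leydig cell genes, with 6 of 10 tested above 0 and 4 below, the sum was 539.8 to 796 in Middle and 551 to 702 in Control. Those of smallest p were Star (-0.62), Insl3 (0.16), Aldh1a1 (0.24) and Cyp11a1 (-0.30), with adjusted p-values of 0.178 to 0.378 (limma). Over 12 peritubular genes, with 8 of 9 tested above 0, it was 245 to 286 in Middle and 248 to 269.96 in Control. Most of this sum came from Actg2, the 1 tested gene below 0. Actg2 was at 139.6 ± 7.69 and 159.6 ± 13.5 RPKM in Middle and Control (SD, n = 3 each), without overlap. Of the 9, 4 reached an unadjusted p under 0.05 upward and 1 downward (limma). Over 14 spermatogonium genes, with 6 of 7 tested above 0, the sum was 216 to 231 in Middle and 217 to 227 in Control. Over 14 spermatocyte genes, with 8 of 14 above 0, it was 1077 to 1166 in Middle and 1126 to 1141 in Control. The part of these cell types in the cystatin and Sox9 values was not tested.

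Of 16 genes of rete testis, efferent ducts and epididymis, 13 were in the table and 3 were tested, 2 above 0 and 1 below. Their sum was 257 to 321 RPKM in Middle and 298 to 323 RPKM in Control, most of it from Cst8, which spermatids also express. Besides Cst8 the tested genes, which reached a group mean of 1 RPKM, were Rnase10 and Krt8, with log2 fold changes of 0.16 and 0.01. Among those below that level, the epididymal genes Adam7 and Crisp1 were at 0 in 5 and 3 of the 6 libraries. Defb41 was at 0.232 to 0.705 RPKM. Whether adjoining tissue added to Cst8 was not tested. Macrophage genes, 7 of 9 tested above 0, summed to 26.01 to 29.5 RPKM in Middle and 23.8 to 29.5 in Control. Of the endothelial genes only Cldn5 was tested (0.30), of the fat genes only Adipoq (-0.33), and of the red cell genes 3, all above 0; none passed.

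**Figure D4:**
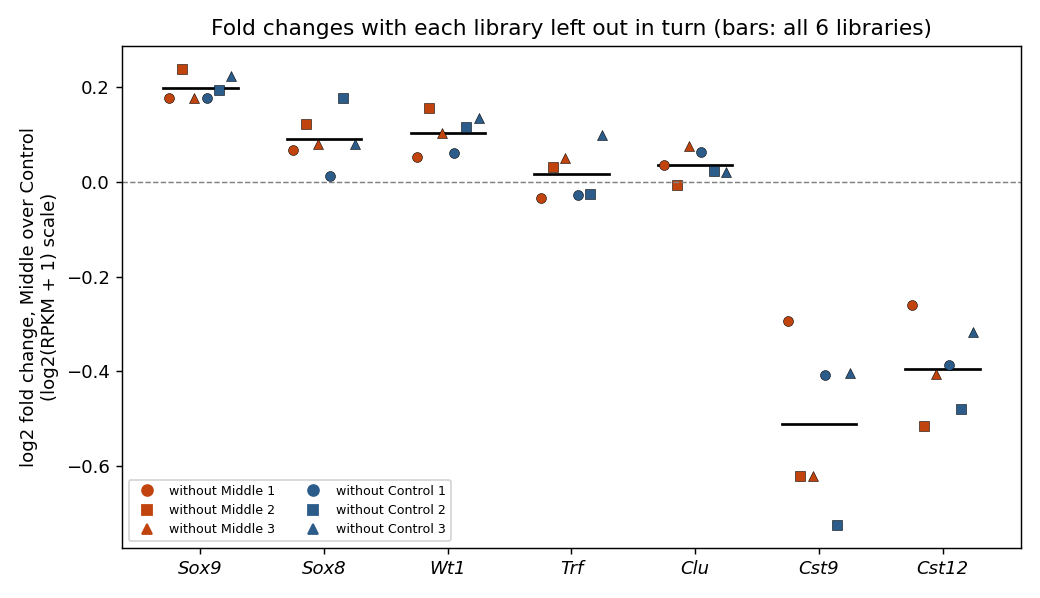
Log2 fold change of each tested Sertoli gene (log2(RPKM + 1) scale) with all 6 libraries (black bars) and with each library left out in turn (symbols). Sox9 stays between 0.18 and 0.24, Cst9 runs from -0.72 to -0.29 and Cst12 from -0.52 to -0.26, and Trf and Clu lie on both sides of 0.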

How the data were processed

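The deposited table gave 1 RPKM value per gene and library, which the authors had scaled to gene length and library size. The submitters' processing notes name fastp 0.23.0 and the build GRCm39; no aligner, counting program or strandedness is named in the labels or the file headers. RPKM times the deposited gene length was divided by a step fitted from the data for each library and taken as 1 read. This gave whole reads for 100% of values (tolerance 0.001). Of genes with few reads, 73.3% to 74.7% held an even number, as when both mates are counted.

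Libraries were grouped by title. A count test had been planned as first choice; since the table held RPKM, its planned substitute was used. The filter was a group mean of 1 RPKM or more (15040 genes). Middle and Control were compared on log2(RPKM + 1) by limma 3.58.1 in R 4.3.3, in its limma-trend form, with a two-sided threshold of 0.05 on the Benjamini-Hochberg adjusted p over those genes. With 3 libraries against 3, an exact permutation p cannot go below 0.1. On simulated reads with known changes the fit recovered most of the changed genes, but more of its calls were false than the threshold allows, mostly among genes with few reads. The number of all genes passing may therefore be too high; the 7 tested Sertoli genes held at least 282 reads a library. Libraries of a group differed by more than sampling noise (chi-square per degree of freedom 6.26 to 34.4). Alternatives were other pseudocounts, filters and scalings, limma-voom on the recovered reads, sample weights, a replicate block, removal of the GC trend and each library left out.

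Members and gene lists were chosen with earlier results of these data known. The rule was to name all members, at most 4 genes of each list (smallest p), direct partners of a member and defining markers of cell types. Cldn11, Foxl2, Sry, Adam7, Crisp1, Cstb and Cerox1 were named outside this rule. Sox30, Cstdc2 and the ratios to Sox9 were chosen after their values were seen. GC content came from GENCODE M21 transcripts by symbol (34736 genes, 93.1% of those tested) and promoters from RefSeq.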

Additional observations from a re-analysis of the deposited data

How the results depend on the processing

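None of the 10 Sertoli genes passed over all genes in any of the 17 alternatives that tested it. The adjusted p (limma) ranged over these from 0.0939 to 0.517 for Sox9, from 0.0864 to 0.514 for Cst12 and from 0.183 to 0.561 for Cst9; Sox9, Sox8, Wt1, Cst9 and Cst12 kept their direction in all 17. The number of all genes passing, 8 as reported, was 0 without a filter, 54 with sample weights, 10 with limma-voom on recovered reads and 0 to 3 with a library left out, where it was 1 without Middle replicate 1. With a replicate block it was 0. The numbers did not pair the libraries (correlations of same-numbered deviations -0.153, -0.119 and 0.00544), and no library correlated best with its own number. Trf turned to -0.044 with sample weights and -0.023 with the GC trend removed, and ran from -0.033 to 0.10 with a library left out. Clu turned to -0.0042 with sample weights and -0.030 with the GC trend removed, and ran from -0.0060 to 0.077 with a library left out. The cause was not tested. Depth limits Amh, Fshr and Kitl most, at 13 to 272 reads a library.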
